A study of Raphidocelis subcapitata with 45 samples.

Results

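A group of 60 genes of the green alga Raphidocelis subcapitata was described, out of 7291 genes measured (0.823%), whose transcripts were low at 784 µg/L sertraline, higher again at 1960 µg/L and low once more at 12249 µg/L. The members were chosen by their measured values: a group mean at 784 µg/L at least 0.6 below the control mean on the log2 scale, a mean at 1960 µg/L at least 0.7 above that at 784 µg/L, and a mean at 12249 µg/L at least 0.6 below the control mean. The levels at 0, 784, 1960 and 12249 µg/L are therefore given as a description, without a test. The libraries at 50, 125, 314, 4900 and 30623 µg/L took no part in the choice, and every test below compares those libraries. The spread behind each p-value was estimated from all libraries, those that chose the members included.

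R. subcapitata is a unicellular freshwater alga of the Carolina Biological strain in these labels, and sertraline is an antidepressant that blocks serotonin reuptake in animals. Cultures in exponential growth stood for 24 h in deep-well plates under constant light, without sertraline (solvent control) or at 1 of 8 nominal concentrations of sertraline hydrochloride, and all wells, control wells included, held solvent. The control and the 50, 125, 314, 784, 1960 and 4900 µg/L groups had 5 libraries each, lettered A to E. The 12249 µg/L group had 3 (A, B and C) and the 30623 µg/L group had 3 (A, C and D). Each library came from pooled homogenates of replicate plates, so a library averages over wells, and no measured exposure concentrations were used here.

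A transcript that falls, returns and falls again along a concentration series has a non-monotone course, which a single slope over concentration does not describe. In a bulk extract of a culture, a lower value can reflect fewer transcripts in every cell or fewer cells that carry them, and these cannot be told apart. The 3′ libraries used here count transcript ends, so a value stands for a gene's poly(A) transcripts as a whole. The identifiers of the deposited table are not paired with gene names in the files, so no role can be given to any member, and 4 members are named by identifier as examples.

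Values are on the authors' deposited scale, read here as log2, where a difference of 1 is 2-fold. The files give no read counts, so the depth of the libraries is unknown. Several libraries stood apart from their group over the members, each summarised as the median over the 60 members of the level minus the control mean. Replicate B at 125 µg/L stood at -1.24, against -0.21 to -0.14 in the other 4 libraries of its group. Replicates A and B at 50 µg/L stood at -0.49 and -0.46, while C, D and E stood at 0.14, 0.02 and 0.10. Control replicate E stood at -0.35, and the other 4 controls between 0.03 and 0.15. The 4900 µg/L libraries spread from 0.11 in B and 0.06 in A through -0.54 in C and -0.96 in D to -1.47 in E. Over all genes the same median stayed between -0.05 and 0.02 in every library. The deposited values are normalised, which favours similar medians over all genes, so this is no check on those libraries. Whether growth, handling or exposure of those wells differed was not tested.

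At the concentrations that chose them, the members took the course that the choice requires, with wide differences in how far they returned. The median difference from control was -1.26 at 784 µg/L (quartiles -1.65 and -0.85), 0.38 at 1960 µg/L (quartiles -0.12 and 0.66) and -1.74 at 12249 µg/L (quartiles -2.37 and -1.16). The step from 784 to 1960 µg/L had a median of 1.47 on the log2 scale. In single libraries the median over members ran from -1.46 to -1.11 at 784 µg/L, from 0.26 to 0.54 at 1960 µg/L and from -1.79 to -1.65 at 12249 µg/L, so the 1960 µg/L libraries did not overlap with the others. In 51 of 60 members all 5 libraries at 1960 µg/L lay above all 5 at 784 µg/L, and in 46 they lay above all 3 at 12249 µg/L. In 39 of 60 members the mean was lower at 12249 than at 784 µg/L. Choosing members by these group means favours the separations from 1960 µg/L, and shares over all genes were not counted for these counts.

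Genes lay close to each limit on both sides, where the nearest gene outside is one that met the other limits. At 784 µg/L the last member had a difference of -0.61 and the nearest gene outside -0.57. For the step from 784 to 1960 µg/L the values were 0.704 inside and 0.69997 outside, and at 12249 µg/L they were -0.60 inside and -0.50 outside. Of the 216 genes that met the limit at 784 µg/L, 130 also met the limit at 12249 µg/L and 102 also met the step at 1960 µg/L.

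**Figure D1:**
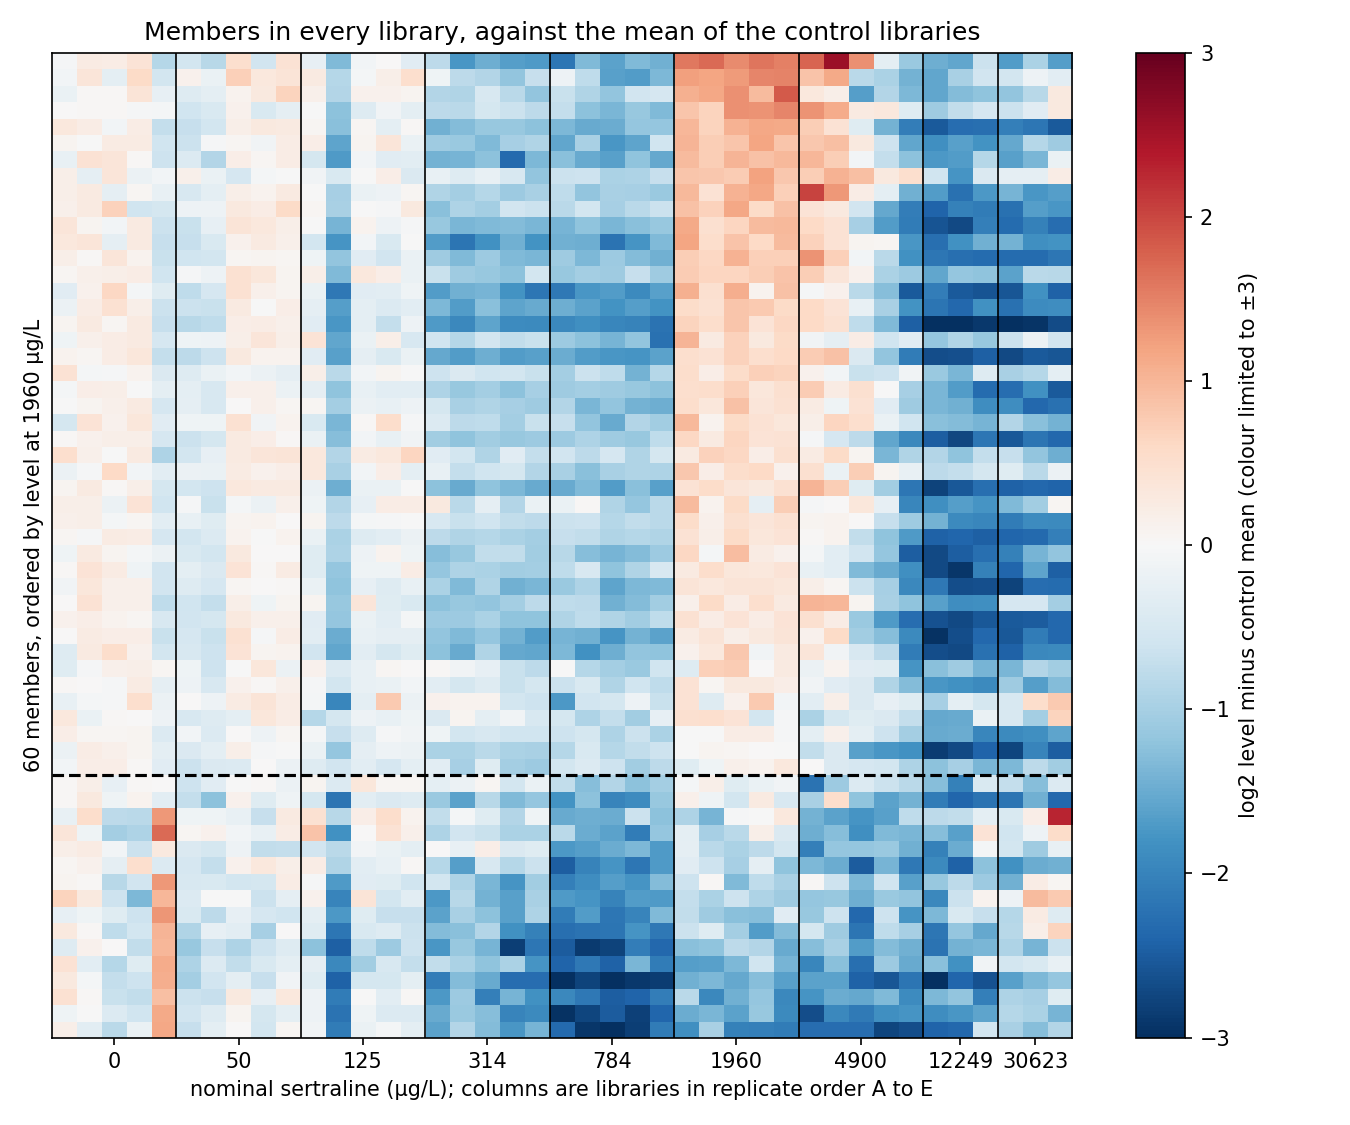
Each row is 1 of the 60 members and each column 1 of the 41 libraries, grouped by nominal sertraline concentration, and colour gives the log2 level minus the mean of the 5 control libraries. Above the dashed line stand the 44 members whose mean at 1960 µg/L was above control and below it the other 16, and replicate B at 125 µg/L and replicate E at 4900 µg/L are seen as blue columns.

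The return at 1960 µg/L split the members. In 44 members the mean at 1960 µg/L was above the control mean, with a median difference of 0.50 and a range of 0.02 to 1.56. In the other 16 it was still below control, with a median of -0.90 and a range of -1.80 to -0.11, and 14 of these were at -0.40 or lower. The 16 had fallen further at 784 µg/L, to a median of -1.93, against -1.06 in the 44. In part this follows from the choice: with a step of at least 0.7, a member still below control at 1960 µg/L must be lower at 784 µg/L. The comparison of 12249 with 784 µg/L below is affected in the same way. The mean at 12249 µg/L was below that at 784 µg/L in 37 of the 44 but in 2 of the 16, where the median was -1.39 at 12249 µg/L. The 16 also had lower control levels, with a median control level of 4.75 against 6.24 in the 44 and 4.58 over all genes. This split was made after the values were seen and rests on the control and 1960 µg/L libraries, so the subsets are described and not tested against each other.

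The subsets also differed among the untreated libraries. Control replicate E was the lowest of the 5 controls in 37 of the 44 members and the highest in 13 of the 16. Each control library was lowest in 17.2% to 24.5% of all genes and highest in 16.8% to 22.8%. The split uses the control mean, which control E enters. A high control E therefore favours a place in the 16, and a low one a place in the 44. As medians, the 44 stood at -0.51 in control E and between 0.03 and 0.17 in the other 4 controls. The 16 stood at 1.05 in control E, 0.13 in A, 0.03 in B, -0.64 in C and -0.60 in D. The control spread of the 16 was wide, with a median SD of 0.72 per gene, against 0.35 for the 44 and 0.24 over all genes. Without control E in the reference, the same limits chose 62 genes, among them 56 of the 60 members.

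**Figure D2:**
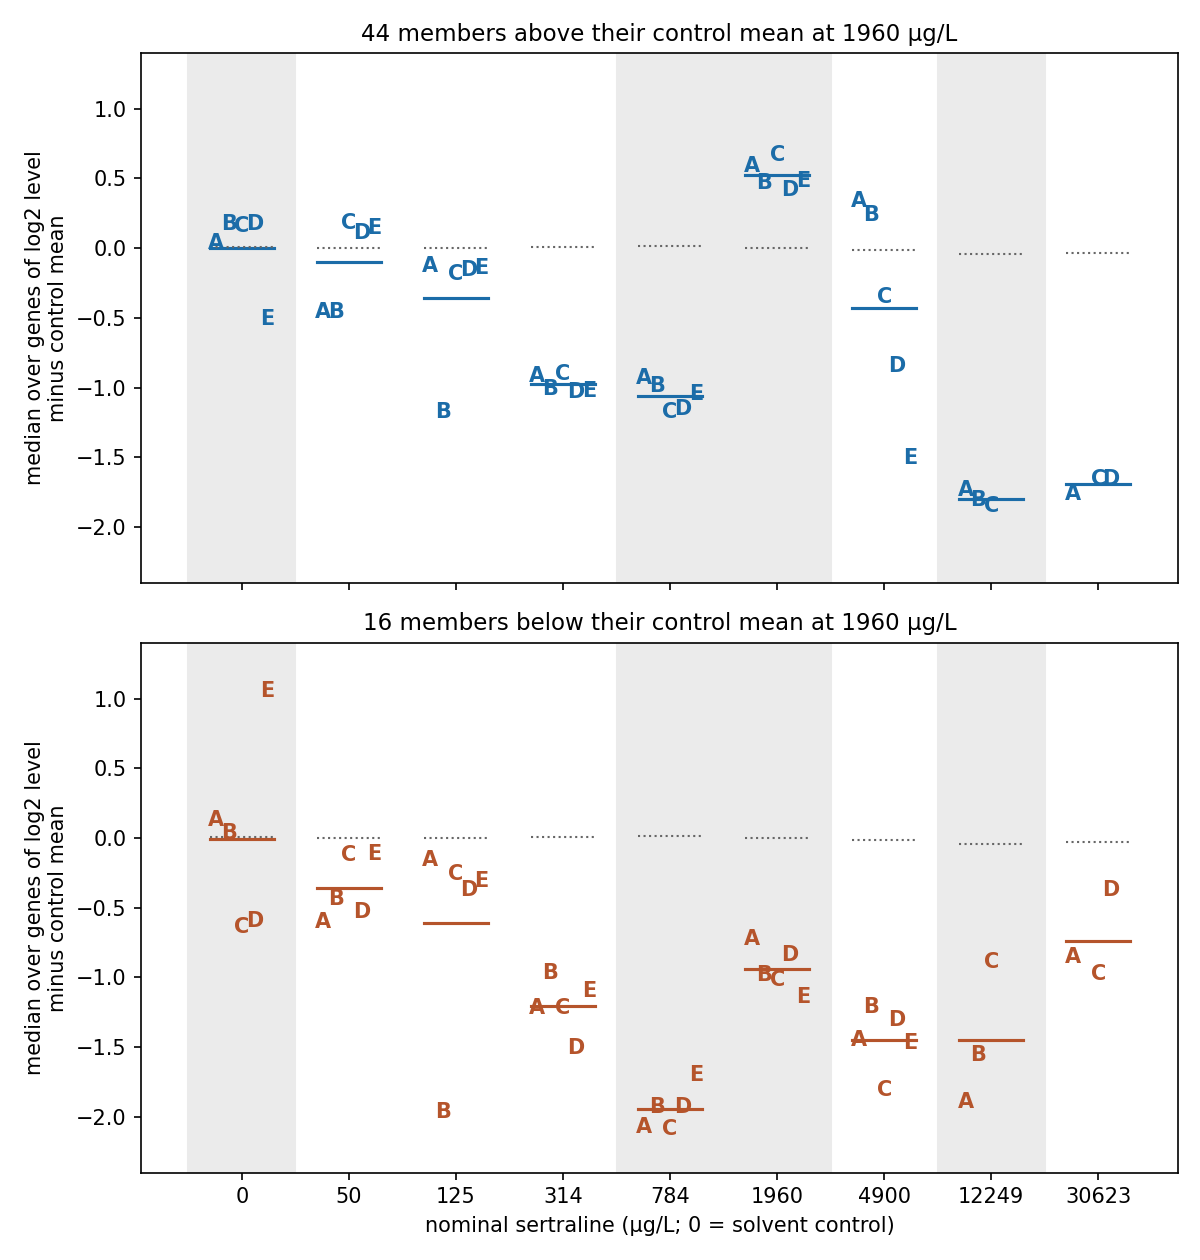
Each letter is 1 library, placed at its median over the 44 members above control at 1960 µg/L (upper panel) or the other 16 (lower panel) of the log2 level minus the control mean, against nominal sertraline concentration. Bars are group means of these medians, dotted lines the same for all genes, and grey bands mark the concentrations that chose the members; at 4900 µg/L the upper panel runs from 0.34 in A to -1.51 in E.

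At 50 and 125 µg/L most members were close to control in most libraries. The median difference from control was -0.13 at 50 µg/L and -0.39 at 125 µg/L. The group mean was below control in 50 and 56 of 60 members, against 3760 and 3718 of 7291 genes. The control mean entered the choice, which favours values below it. Replicate B at 125 µg/L was the lowest of the 5 libraries in 59 of 60 members, where it was lowest in 21.1% of all genes. The 44 stood at -1.18 in that library, below the -1.03 to -0.90 of the 314 µg/L libraries, and the 16 at -1.96, against -1.51 to -0.96 at 314 µg/L. Replicates A and B at 50 µg/L were the lowest of their group in 27 and 26 members, against 23.9% and 17.9% of all genes. Among these 10 libraries the members moved together: the deviations of a pair of members from their group means had a median correlation of 0.80 (quartiles 0.68 and 0.89 over 1770 pairs), against 0.00 over all pairs of genes. This is a description over 10 libraries that all members share, the 3 low ones included.

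The first fall was measured again at 314 µg/L, in libraries outside the choice, against the mean of the 50 and 125 µg/L groups. The median difference of the members was -0.80 (quartiles -0.96 and -0.53), against 0.01 over all genes, and 58 of 60 members were lower. In limma's test with Benjamini-Hochberg adjustment 23 of the 60 members (38.3%) were lower at 314 µg/L, while 28 genes in all were (0.384%), so 5 called genes were not members. At an unadjusted p under 0.05 in the same limma fit, 51 members were lower, against 2.94% of all genes. No member was higher in limma's test, adjusted or unadjusted, and 1 gene in all was after adjustment (0.0137%). Of the 23, 20 belonged to the 44 and 3 to the 16. The count of 23 became 38 without replicate B at 125 µg/L, 14 without replicate B and 13 without replicate D at 314 µg/L. It became 42 without A and B at 50 and B at 125 µg/L, libraries picked as low over these members, which favours a higher count. It was 5 in fits with the 5 outside groups alone or without an intensity trend, which called 8 and 7 genes in all. With array weights it was 44 of the 60. Counts over all genes are not given beside the 38, 14, 13, 42 and 44. These therefore do not tell a shift in the members from a shift over all genes. Against 125 µg/L alone, limma called no member and no gene (43 members and 1.66% of all genes were lower at an unadjusted p under 0.05).

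Counts of members without overlap depended on the 3 low libraries. No member had all 5 libraries at 314 µg/L below all 10 at 50 and 125 µg/L, which held for 0.0686% of genes. Leaving out B at 125 µg/L, 37 members did (1% of genes). Leaving out A and B at 50 µg/L as well, 44 members did (1.77% of genes), so 16 members still overlapped. The 44 members without overlap are not the subset of 44 described above: 35 came from that subset and 9 from the subset of 16. The libraries left out were picked as low over these same members, so these counts could only rise. They were not picked by their levels in other genes, so the shares over all genes are no like comparison. The 5 libraries at 314 µg/L stood within 0.15 of each other, at -0.94, -0.98, -0.91, -1.06 and -1.03 for A to E, below every library at 50 and 125 µg/L other than B at 125 µg/L.

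At 4900 µg/L the mean of 51 of 60 members lay between the means at 1960 and at 12249 µg/L. That count is a description: the choice favours a wide gap between those means, and the share over all genes was not counted. The comparisons that follow share the 314, 4900 or low-concentration libraries with each other. Relative to 314 µg/L, 23 members were higher in limma's test (15.4% of all genes were), all of them among the 44, and 5 were lower (19% of all genes), all among the 16. At an unadjusted limma p under 0.05 the counts were 25 and 6, in the same subsets, against 19.4% and 23.0% of all genes. The median difference was 0.60 for the 44 and -0.34 for the 16, against -0.01 over all genes. The libraries overlapped, and only 3 members had all 5 libraries at 4900 µg/L above all 5 at 314 µg/L (9.07% of genes). Leaving out single libraries moved the count of 23 between 17 (without A of 4900 µg/L) and 28 (without E).

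Relative to the 50 and 125 µg/L groups, limma called 22 members lower at 4900 µg/L (22% of all genes), 10 of the 44 and 12 of the 16, and 3 of the 44 were higher (18.2% of all genes). The median difference was -0.35 over the members, -0.20 for the 44 and -0.93 for the 16. The count of 22 was 14 without replicate E at 4900 µg/L and 31 without replicate B, and 13 when genes with a mean under 4 were left out, since 9 of the 22 were such genes.

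The libraries at 4900 µg/L were far apart in the 44 and closer in the 16. At 4900 µg/L the 44 stood at 0.34 in A, 0.24 in B, -0.35 in C, -0.85 in D and -1.51 in E, a range from near the 1960 µg/L libraries (0.41 to 0.67) to near the 12249 µg/L libraries (-1.85 to -1.74). Replicate E was the lowest of the 5 in 37 of the 44 members, against 18.6% of all genes, and A the highest in 24, against 25.2% of all genes. The median SD per gene was 0.87 in the 44, against 0.36 over all genes and 0.18 for the same 44 at 1960 µg/L. The limma fit shares 1 spread over all groups, so its SE and p-values at 4900 µg/L do not reflect this wider spread. Pairs of these 44 had a median correlation of 0.86 across the 5 libraries (quartiles 0.64 and 0.95), against 0.00 over all pairs. The 16 stood at -1.45, -1.21, -1.81, -1.30 and -1.47 in A to E, with a median SD of 0.43 and a median pair correlation of 0.23.

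At the highest concentration most members stayed low. Relative to the 50 and 125 µg/L groups, limma's test called 38 of 60 members lower at 30623 µg/L, against 29.5% of the whole table, and 1 higher, against 27.4%. The median difference was -1.07 over the members, -1.40 for the 44 and -0.09 for the 16, against -0.01 over all genes. Of the 38, 34 belonged to the 44 and 4 to the 16. In 26 members, 25 of them among the 44, all 3 libraries lay below all 10 at 50 and 125 µg/L, which held for 20% of genes. Leaving out A and B at 50 and B at 125 µg/L, which were picked as low over these members, made the limma count 46. The fit shares 1 spread over groups, while the median SD at 30623 µg/L was 0.42 over all genes and 0.30 over the members.

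Between 4900 and 30623 µg/L, 34 of the 44 fell in limma's test and none was called higher, adjusted or unadjusted, with a median difference of -1.24. Of the 16, 10 rose and 1 fell, with a median of 0.90. Over all genes 21.2% were lower and 21.9% higher. The total of 35 lower became 23 with array weights, and the total of 10 higher became 5 without replicate D at 30623 µg/L. Of these 10, 8 had a mean under 4, a level at which 29.2% of genes were higher, against 18.7% of genes above it. From 12249 to 30623 µg/L the means rose by a median of 0.67 in the 16 and 0.22 in the 44, which is a description, since the 12249 µg/L libraries chose the members.

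**Figure D3:**
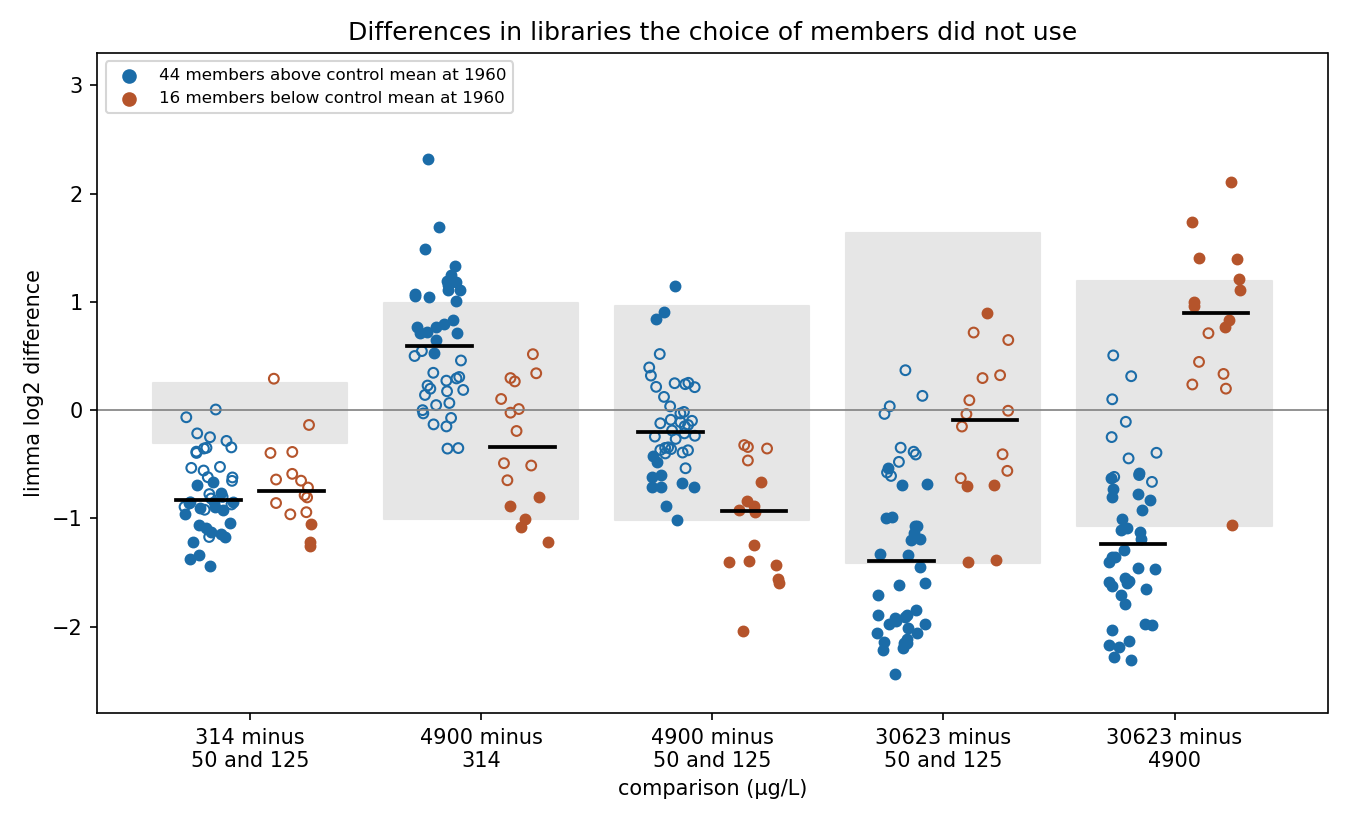
Each point is a member's limma log2 difference in 1 of the 5 comparisons outside the choice, filled where the adjusted p was under 0.05, with the 44 members above control at 1960 µg/L in blue and the other 16 in orange. Black bars are medians and grey boxes span the 5th to 95th percentile of all genes; in the last comparison the 44 have a median of -1.24 and the 16 one of 0.90.

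Rsub_09796 and Rsub_02879, both of the 44, had the highest differences between 4900 and 314 µg/L among the members called. Rsub_09796 was at 4.80, 5.08, 5.06, 5.24 and 3.98 in control libraries A to E and at 4.06, 3.09, 3.36, 3.19 and 3.12 at 314 µg/L. At 784 µg/L it was at 2.66, 3.50, 3.23, 3.51 and 3.39, and at 1960 µg/L at 6.40, 6.53, 6.25, 6.45 and 6.35, so the 1960 µg/L libraries stood above all of these and closely together. The 4900 µg/L libraries ran from 7.39 in B, 6.59 in A and 6.20 in C to 4.54 in D and 3.71 in E, and reached the levels of both neighbouring concentrations. The difference between 4900 and 314 µg/L was 2.32 ± 0.35 (SE), a 5.00-fold rise (limma adjusted p = 2.72e-07). That SE rests on a spread shared over groups, while the SD of this gene was 1.52 at 4900 µg/L and 0.40 at 314 µg/L. At 30623 µg/L the gene was at 3.15, 3.88 and 3.18, lower than at 4900 µg/L by a log2 difference of -2.28 ± 0.41 (SE; limma adjusted p = 9.23e-06). The difference of -1.17 ± 0.31 (SE) between 314 µg/L and the 50 and 125 µg/L groups did not pass (limma adjusted p = 0.0683). It passed without B at 125 µg/L, a library low over the members (limma adjusted p = 0.0155).

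Rsub_02879 was at 5.83, 5.87, 5.22, 5.78 and 4.82 in control A to E, at 4.82, 5.05, 5.64, 5.78 and 5.65 at 50 µg/L, and at 4.95, 3.73, 5.43, 5.05 and 5.49 at 125 µg/L. The 314 µg/L libraries stood at 3.82, 3.31, 3.69, 4.06 and 3.71. Only B at 125 µg/L overlapped with them. Against the 50 and 125 µg/L groups it fell by 1.44 ± 0.24 (SE; limma adjusted p = 0.00159), a call that was lost against 125 µg/L alone (limma adjusted p = 0.383). At 4900 µg/L its libraries were at 6.21, 5.93, 5.59, 5.57 and 3.75, where E stood apart at the 314 µg/L level, and the rise over 314 µg/L was 1.69 ± 0.28 (SE; limma adjusted p = 2.05e-06). At 30623 µg/L, with libraries at 4.09, 3.66 and 3.70, the gene was again near its 314 µg/L level.

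Rsub_00393 and Rsub_08497 were added after the values were seen. In each subset it was the member with the lowest difference at 314 µg/L among those called, not yet named and with all 314 µg/L libraries below the other 9 without B at 125 µg/L. Rsub_00393, of the 44, was a strong gene, at 9.32, 9.53, 9.32, 9.53 and 8.56 in control A to E. At 50 µg/L it stood at 8.43, 8.48, 9.45, 9.47 and 9.40 and at 125 µg/L at 8.91, 7.51, 8.95, 8.55 and 9.10, where A and B were the low libraries at 50 µg/L and B the lowest at 125 µg/L, with D there at about the level of control E. At 314 µg/L the libraries were at 7.55, 7.33, 7.68, 7.36 and 7.33, a fall of -1.38 ± 0.25 (SE) from the 50 and 125 µg/L groups (limma adjusted p = 0.00237, and 0.383 against 125 µg/L alone). At 1960 µg/L they were at 9.92, 9.78, 10.07, 9.66 and 9.88, and at 4900 µg/L at 9.86, 9.71, 8.50, 7.93 and 6.80, with A highest and E lowest as over the 44. The 30623 µg/L libraries, at 6.27, 6.32 and 6.57, lay below every library at 50, 125, 314 and 4900 µg/L. The difference from the 50 and 125 µg/L groups was -2.44 ± 0.29 (SE), 5.41-fold lower (limma adjusted p = 3.45e-10).

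Rsub_08497, of the 16, had a control mean near the median of all genes, at 5.03, 4.60, 3.92, 3.84 and 5.49 in control A to E, with E highest. It was at 2.86, 3.49, 2.53, 3.19 and 2.76 at 314 µg/L, a fall of -1.26 ± 0.26 (SE) from the 50 and 125 µg/L groups (limma adjusted p = 0.00632, and 0.383 against 125 µg/L alone). In B at 125 µg/L it was at 2.48, against 4.26 to 4.62 in the other 4 libraries. At 784 µg/L it was at 2.65, 2.44, 2.10, 2.18 and 2.50 and at 1960 µg/L at 3.76, 2.64, 3.13, 3.42 and 2.65, so its return was small and the 1960 µg/L libraries stayed below every control library. At 4900 µg/L, with 2.82, 3.09, 3.04, 3.26 and 2.69, it differed from 314 µg/L by 0.01 (95% interval -0.59 to 0.61). At 30623 µg/L it was at 3.65, 3.58 and 4.22, above all libraries at 4900 µg/L, a rise of 0.84 ± 0.34 (SE; limma adjusted p = 0.0431).

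**Figure D4:**
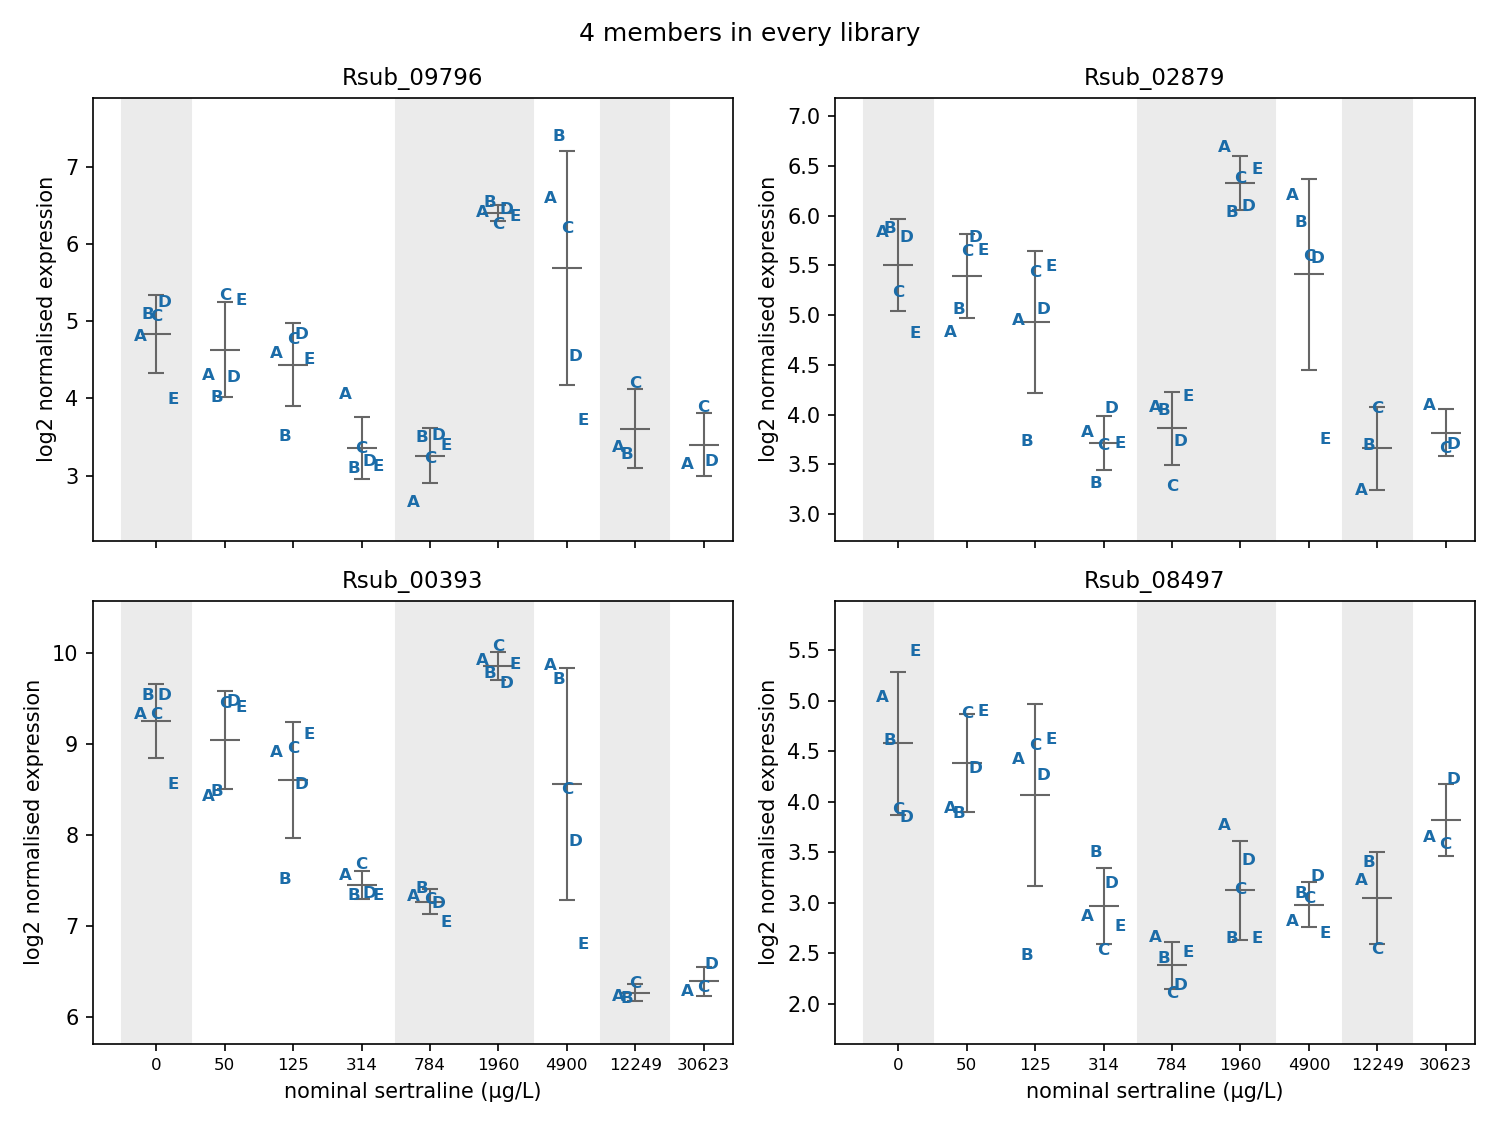
Each letter is 1 library's log2 normalised expression of the named member against nominal sertraline concentration, with the group mean and SD in grey (n = 5, and 3 at 12249 and 30623 µg/L), and grey bands mark the concentrations that chose the members. Rsub_00393 drops from 9.86 in A to 6.80 in E at 4900 µg/L, while Rsub_08497 stays between 2.69 and 3.26.

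Most members were well expressed: 35 of the 60 lay in the highest tercile of control levels, 20 in the middle and 5 in the lowest, and the median was 5.62 against 4.58 over all genes. Of the 35, 5 belonged to the 16. Some members had neighbouring identifiers, with 18 of the 60 numbered within 12 of another member, in 9 pairs, of which 5 lay within the same subset. Of the table's genes within 12 numbers of a member, counted once per member, 2.35% were members, against 0.823% of all genes. Whether neighbouring numbers mean neighbouring genes was not examined.

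Genes that met only part of the rule are given beside the members, and the differences between these sets were not tested. The sets are not matched: the median at 784 µg/L was -0.89 in the 70 and -0.80 in the 42 below, against -1.26 in the members. Median control levels were 4.77 and 3.82, against 5.62. The step limit, counted from 784 µg/L, itself favours genes low there. The 70 genes that were low at 784 and 12249 µg/L without the step at 1960 µg/L had a median difference of -0.23 at 314 µg/L from the 50 and 125 µg/L groups, with 4 called lower, against -0.80 and 23 of 60 in the members. At 30623 against 4900 µg/L they had a median of 0.69, with 36 called higher and 2 lower, beside 0.90 in the 16 and -1.24 in the 44. The 42 genes with the step that were not low at 12249 µg/L had a median of -0.27 at 314 µg/L with none called lower in limma's test (7 at an unadjusted p under 0.05), and of 1.04 at 30623 against the 50 and 125 µg/L groups. Replicate B at 125 µg/L was low in these genes too, at -0.67 in the 70 and -0.81 in the 42, and the median pair correlations over the 50 and 125 µg/L libraries were 0.31 and 0.37, against 0.80 in the members. At 4900 µg/L the libraries stood between -1.55 and -1.15 in the 70.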

How the data were processed

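The authors deposited 1 table of normalised log2 expression for 7291 genes in 41 of the 45 labelled libraries. The other 4 were not analysed here. Per the submitters' processing notes the reads were handled with STAR 2.7.10a, featureCounts 2.0.6 of Subread, DESeq2, SAMtools 1.15.1, fastp 0.23.2 and bcl2fastq 2.20.0, with no roles given. Not given in the sources used here are the transform, gene filter, genome build, use of molecular identifiers and log base, and base 2 is assumed. If low values were shrunk, changes of weak genes are understated. Without read counts, depth and counting error are unknown.

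Groups came from the sample titles. All libraries entered a limma 3.58.1 fit in R 4.3.3 with a mean per group and an intensity trend (32 residual degrees of freedom). The 5 comparisons were two-sided, Benjamini-Hochberg adjusted over all genes, with a threshold of 0.05. The fit was run on simulated data with independent noise in each gene, without deviations that the genes of a library share. It therefore does not show how the p-values behave where members move together, as they did here. The low reference is the mean of the 50 and 125 µg/L group means. The labels name no separate cultures, so a p-value here weighs differences against variation among libraries that may be technical.

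The members, lists and tests were chosen with earlier results of these data known. Named members were to be 2 called lower at 314 µg/L whose libraries there lay below all 10 at 50 and 125 µg/L, which none met, and the 2 others with the highest rise from 314 to 4900 µg/L. Gene lists based on product names were not used, since the identifiers carry no names here. Plots used matplotlib 3.10.9 under Python 3.11.15.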

Additional observations from a re-analysis of the deposited data

Results flagged for a closer look

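In 7 of 35 groups of 5 values examined, 1 library lay far from the other 4, where chance flags about 1 in 20 independent groups, or 1.75. The 35 are not independent, since the member median and the 4 named members were taken over the same libraries. Some libraries were thus flagged more than once, and 7 against 1.75 can overstate the excess. Over the 60 members, control replicate E had a median of -0.35 against the control mean, with the others between 0.03 and 0.15, and replicate B at 125 µg/L had -1.24, with the others between -0.21 and -0.14. The same library was low in Rsub_09796, at 3.51 against 4.50 to 4.83, and in Rsub_08497, at 2.48 against 4.26 to 4.62. Control replicate E was low in Rsub_00393, at 8.56 against 9.32 to 9.53. Replicate E at 4900 µg/L was low in Rsub_02879, at 3.75 against 5.57 to 6.21. Replicate A at 314 µg/L was high in Rsub_09796, at 4.06 against 3.09 to 3.36.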

How the results depend on the processing

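The count of members lower at 314 µg/L (23) was 5 with the 5 outside groups alone and without an intensity trend, 44 with array weights, 0 against 125 µg/L alone (limma called no gene there, and 43 members were lower at an unadjusted p under 0.05), 42 without A and B at 50 and B at 125 µg/L, and 13 to 38 when single libraries were left out. The count lower at 4900 µg/L than at 50 and 125 µg/L (22 of 60) was 14 against 125 µg/L alone and 14 to 31 without single libraries. It was 13 of 47 members without genes of a mean under 4. With rule limits stricter and looser by 0.2 it was 13 of 40 and 37 of 119 members. The 38 of 60 lower at 30623 µg/L became 58 of 119 with looser limits. Against 4900 µg/L, the 35 lower became 23 with array weights. The 10 of 60 higher became 2 of 47 without genes of a mean under 4 and 5 to 11 without single libraries. With stricter and looser limits they became 6 of 40 and 23 of 119. The number of members (60) was 119 with looser limits, 40 with stricter ones and 56 to 64 without single libraries. The count higher at 4900 than at 314 µg/L stayed between 18 and 32 in its 10 other settings and 17 to 28 without single libraries. The replicate block left the counts at 314 µg/L and at 4900 against 314 µg/L at 23 each. The letters showed no pairing: deviations of same-letter libraries correlated over 0.1 in 19 of 149 pairs, and 11 of 41 libraries correlated best with their own letter. Leaving out the 3 low libraries together and the count higher at 30623 µg/L were added after seeing the data. The 3 libraries were picked as low over these members, so leaving them out favours higher counts of members called lower. Beyond these constructions, the cause of each shift was not tested. Counts over all genes are mostly not given for these settings, so no shift is read as particular to the members.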
